A study of Mus musculus with 6 samples.

Results

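The homing and adhesion receptors of hematopoietic stem and progenitor cells (HSPCs) were examined as 9 listed genes among the 24965 genes of an RNA-seq data set of donor cells. The list holds Cxcr4, S1pr1, Itga4, Itga5, Itgb1, Itgal, Itgb2, Cd44 and Selplg, chosen by their known roles in homing, and all 9 were measured. Whole bone marrow cells (20000000 per transfer) of CD45.2+ C57BL/6 donors, either wild type (WT) or Hemgn-/-, were injected into CD45.1+ recipients that had received a split dose of 9 Gy, and donor cells were sorted from the recipients 6 h after bone marrow transplantation (BMT). Each genotype had 3 libraries, labelled replicates 1 to 3, and the recipients of both genotypes were irradiated. The methods give mice of 8 to 10 weeks of both sexes, a germline disruption of Hemgn made with zinc finger nucleases, and WT littermates as controls, but not the sex of the donors behind each library. The labels describe the cells as Lin-Sca-1+, whereas the series design and the methods add c-Kit+, and they also differ on the injection route and the library kit.

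Homing brings transplanted HSPCs from the blood through the vessel wall into the marrow. CXCR4 senses the stromal chemokine CXCL12, selectin ligands and CD44 slow the cells on the endothelium, and the integrins VLA-4 (Itga4 with Itgb1), VLA-5 (Itga5 with Itgb1) and LFA-1 (Itgal with Itgb2) hold them on VCAM-1, fibronectin and ICAM-1. S1PR1 responds to the sphingosine 1-phosphate gradient between tissue and blood and takes part in egress. The same receptors are carried by neutrophils and lymphocytes, which bears on bulk RNA of a sorted population.

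The libraries held 23668015 to 28897360 fragments. FPKM counts fragments per kilobase of transcript relative to the library's total. The totals were worked out from FPKM values and exon lengths, as the total on which the largest group of genes met when taken as 1 fragment each. Hemgn was at 5.64, 2.96 and 4.68 FPKM in WT and at 0.75, 0.91 and 1.60 FPKM in Hemgn-/- replicates 1 to 3, a log2 fold change of -1.37 with an adjusted p of 0.0114 from limma. The groups did not overlap, although reads of the whole transcript do not test a small deletion directly. The markers went against the label of the cells. In each library the summed FPKM of 9 neutrophil genes (75531 to 81532 in WT and 50063 to 55411 in Hemgn-/-) was far above that of 12 HSPC genes (43.8 to 51.2 and 51.9 to 58.0), and Kit, the receptor of the c-Kit gate, was at 5.50 to 7.24 FPKM over all libraries. The cells are therefore called donor cells here. The groups also differed in markers of other cells, as 5 of 8 tested erythroid genes and 3 of 5 granulocyte precursor genes fell, while 3 of 7 B cell genes rose. WT replicate 2 stood apart, with 92 of 4052 well expressed genes (2.27%) more than 1.5-fold beyond both other WT libraries, against 15 to 40 genes in each of the other libraries, and values that rest on it are given with and without it.

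**Figure D1:**
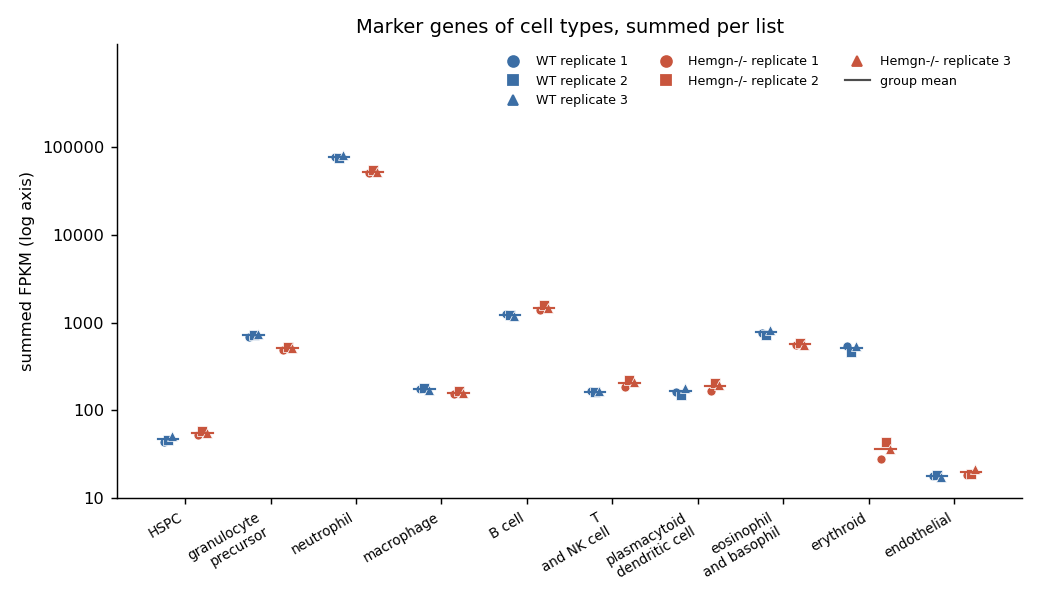
Summed FPKM of the marker genes of 10 cell types in each library, on a log axis, with horizontal lines for the group means. Neutrophil genes stand above every other list in all 6 libraries, the erythroid sum is 456 to 544 in WT and 28.1 to 43.0 in Hemgn-/- libraries, and the B cell sum is 1183 to 1241 in WT and 1407 to 1576 in Hemgn-/- libraries.

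Loss of Hemgn was not accompanied by a called decrease of any of the 9 receptor transcripts. Selplg, which encodes the selectin ligand PSGL-1, was the single member that rose, with 140 ± 5.86 FPKM in WT donor cells and 176 ± 8.69 FPKM in Hemgn-/- donor cells (SD, n = 3 each). With limma on log2(FPKM + 1) and Benjamini-Hochberg adjustment over 13739 genes tested, 1 of 9 members was higher and 0 were lower at an adjusted p under 0.05, beside 4.37% of all genes tested that were higher and 2.09% that were lower. With the study's rule of an unadjusted p under 0.05 and a 1.5-fold change 0 of 9 members differed, beside 6.83% of all genes tested. Values of the Hemgn-/- group lay above all WT values without overlap for 5 members (S1pr1, Itga4, Itgal, Cd44 and Selplg), beside 19.2% of all genes tested, and below them for 0 members, beside 8.18%. The median log2 fold change was 0.22 over the members and 0.087 over every gene tested. All 9 members passed the filter of FPKM above 1 in at least 1 library, since each was above 1 in every library of both groups. In these bulk samples, fewer cells of a type and less RNA per cell cannot be told apart.

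**Figure D2:**
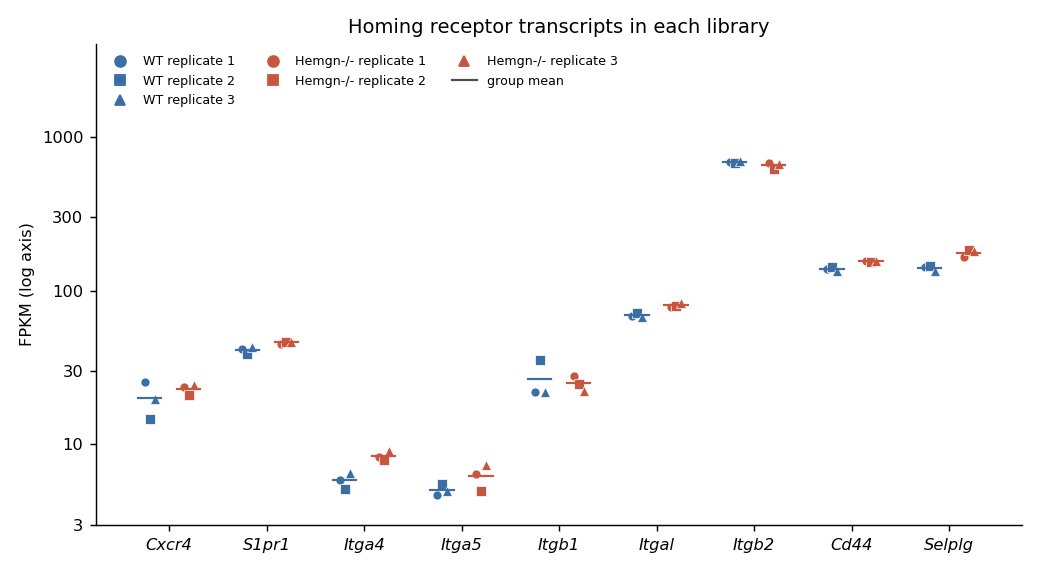
FPKM of the 9 receptor genes in each library, on a log axis, with WT in blue, Hemgn-/- in red, a marker shape for each replicate and horizontal lines for the group means. Itgb2 is the most abundant at 615 to 697 FPKM, Selplg is at 133 to 144 in WT and 166 to 182 in Hemgn-/- libraries, and Cxcr4 and Itgb1 spread widest among the WT libraries.

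Cxcr4 (ENSMUSG00000045382, GRCm38 chr1:128588199-128592293, minus strand), the receptor that draws HSPCs toward CXCL12, was at 25.57, 14.74 and 19.66 FPKM in WT and at 23.60, 21.07 and 24.50 FPKM in Hemgn-/- replicates 1 to 3. WT replicate 1 was the highest and WT replicate 2 the lowest of all 6 libraries, so the Hemgn-/- values lay inside the WT range. Its log2 fold change was 0.23 with a 95% interval of -0.17 to 0.62 (adjusted p = 0.500 from limma), and without WT replicate 2 it was 0.04 (-0.27 to 0.34, adjusted p = 0.907). Leaving out WT replicate 1 instead raised it to 0.41 (adjusted p = 0.170), and median-ratio scaling gave 0.13 (adjusted p = 0.736). The coefficient of variation among WT libraries was 27.1%, and the counting error at the lowest of 682 fragments, a lower limit, is 3.83%. The interval leaves room for a higher Cxcr4 of up to 0.62 on the log2 scale and for a lower one of 0.17.

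S1pr1 (ENSMUSG00000045092, GRCm38 chr3:115710433-115715072, minus strand), the receptor of the egress signal, was steadier than Cxcr4. It was at 41.64, 38.86 and 42.65 FPKM in WT and at 45.04, 46.51 and 46.36 FPKM in Hemgn-/- replicates 1 to 3. The Hemgn-/- libraries were all above the WT libraries, but by little. The difference on the log2 scale was 0.16 (95% interval -0.01 to 0.33, adjusted p = 0.253 from limma). Without WT replicate 2, the lowest library, it was 0.12 (-0.06 to 0.30, adjusted p = 0.441). It was 0.06 (adjusted p = 0.712) under median-ratio scaling between libraries and 0.25 (0.0755) with 1 common FPKM total.

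Among the integrin subunits, the alpha subunit of VLA-4 had the largest difference, and no direction could be given for its beta partner. Itga4 (ENSMUSG00000027009, GRCm38 chr2:79255426-79333123, plus strand) was at 5.85, 5.14 and 6.56 FPKM in WT and at 8.25, 7.97 and 9.02 FPKM in Hemgn-/- replicates 1 to 3. Every Hemgn-/- library was above every WT library. Its log2 fold change was 0.46 (SE 0.12, 95% interval 0.19 to 0.73), the largest among the 9 members under the deposited values, and it missed the threshold (adjusted p = 0.0555 from limma). It passed when all libraries were set to 1 common FPKM total (log2 fold change 0.54, adjusted p = 0.0271) and with voom on the recovered fragments (0.42, adjusted p = 0.0438), and not under the other 13 alternatives. Without WT replicate 2, the lowest library, the log2 fold change was 0.39 (95% interval 0.11 to 0.66, adjusted p = 0.125 from limma). Exons of Cerkl overlap those of Itga4 on the opposite strand, and Cerkl was at no more than 0.628 FPKM.

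Itga5 (ENSMUSG00000000555, GRCm38 chr15:103344286-103366763, minus strand), the fibronectin-binding alpha subunit of VLA-5, was the least abundant member. It was at 4.70, 5.52 and 4.96 FPKM in WT and at 6.39, 4.99 and 7.33 FPKM in Hemgn-/- replicates 1 to 3. Hemgn-/- replicate 2 lay within the WT range, while the other Hemgn-/- replicates were above it. This gave a log2 fold change of 0.25 (95% interval -0.08 to 0.57, adjusted p = 0.379 from limma). It was 0.14 without Hemgn-/- replicate 3 (adjusted p = 0.694), 0.38 without Hemgn-/- replicate 2 (0.192) and 0.16 after median-ratio scaling (0.606).

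Itgb1 (ENSMUSG00000025809), the beta subunit that VLA-4 and VLA-5 share, was at 21.98, 35.41 and 21.98 FPKM in WT and at 27.92, 24.69 and 22.09 FPKM in Hemgn-/- replicates 1 to 3. WT replicate 2 was the highest of all libraries and WT replicates 1 and 3 the lowest. Its log2 fold change was -0.05 (95% interval -0.47 to 0.36, adjusted p = 0.894 from limma), and its sign turned without WT replicate 2, to 0.17 (-0.10 to 0.43, adjusted p = 0.477). The WT coefficient of variation was 29.3%, beside a counting error of at least 2.17%.

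Promoter windows of 5 members (Cxcr4, Itga4, Cd44, Itgb1 and Itga5) were found in the RefSeq table for GRCm38.p6, each running from 250 bases before to 50 bases after the start. The table holds 32851 windows in all. The 250 bases before the start are shown for Cxcr4 and Itga4, the chemokine receptor and the integrin subunit with the largest fold change, with CpG dinucleotides in capitals. They lie at chr1:128592300-128592549 (minus strand) and chr2:79255176-79255425 (plus strand), and hold 19 and 6 CpGs, where the median of all windows over the same 250 bases is 6.
Cxcr4: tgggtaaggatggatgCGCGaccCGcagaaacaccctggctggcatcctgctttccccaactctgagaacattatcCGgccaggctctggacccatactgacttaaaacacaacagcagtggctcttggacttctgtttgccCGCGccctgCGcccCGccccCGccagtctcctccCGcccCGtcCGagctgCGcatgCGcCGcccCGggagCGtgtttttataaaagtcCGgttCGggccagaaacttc
Itga4: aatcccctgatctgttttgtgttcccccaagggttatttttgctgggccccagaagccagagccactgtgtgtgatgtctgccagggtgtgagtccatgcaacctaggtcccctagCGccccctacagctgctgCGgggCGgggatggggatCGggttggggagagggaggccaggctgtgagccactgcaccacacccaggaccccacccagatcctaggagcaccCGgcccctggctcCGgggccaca

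The LFA-1 subunits were the more abundant integrins, and neither was called. Itgal (ENSMUSG00000030830, GRCm38 chr7:127296260-127335138, plus strand), the alpha subunit that binds ICAM-1, was at 68.06, 71.88 and 67.56 FPKM in WT and at 78.31, 79.85 and 83.17 FPKM in Hemgn-/- replicates 1 to 3. The groups did not overlap, and each group was tight. This amounted to a log2 fold change of 0.22 (95% interval 0.06 to 0.37, adjusted p = 0.105 from limma), and the call was reached under 1 alternative, the common FPKM total (0.30, adjusted p = 0.0322). Median-ratio scaling lowered it to 0.11 (adjusted p = 0.409).

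Itgb2 (ENSMUSG00000000290, GRCm38 chr10:77530252-77565708, plus strand), the beta subunit of LFA-1 and of the other leukocyte integrins, was at 684.28, 672.79 and 696.85 FPKM in WT and at 676.55, 615.05 and 666.25 FPKM in Hemgn-/- replicates 1 to 3. Hemgn-/- replicate 2 was the lowest, and Hemgn-/- replicate 1 lay within the WT range. The log2 fold change was -0.07 (95% interval -0.20 to 0.06, adjusted p = 0.534 from limma), and it was -0.17 after median-ratio scaling (adjusted p = 0.147), -0.03 without Hemgn-/- replicate 2 (0.819) and 0.018 with a common FPKM total. Itgb2 also pairs with Itgam, Itgax and Itgad, and the summed FPKM of these alpha subunits with Itgal was 134 ± 6.32 in WT and 146 ± 4.2 in Hemgn-/- libraries (SD, n = 3 each). Itgal and Itgam made up nearly all of that sum, with Itgam at 54.0 to 70.0 FPKM in WT and 59.3 to 62.2 FPKM in Hemgn-/- libraries.

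Cd44 (ENSMUSG00000005087, GRCm38 chr2:102811141-102901665, minus strand), the hyaluronan receptor, which can also carry selectin-binding glycans, was at 138.00, 142.90 and 133.36 FPKM in WT and at 155.06, 153.71 and 156.14 FPKM in Hemgn-/- replicates 1 to 3. The Hemgn-/- libraries were nearly equal and all above WT. The log2 fold change was 0.17 (95% interval 0.03 to 0.30, adjusted p = 0.156 from limma), with a call under the common FPKM total alone (0.25, adjusted p = 0.0444). Median-ratio scaling lowered it to 0.06 (adjusted p = 0.628).

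Selplg (ENSMUSG00000048163, GRCm38 chr5:113818536-113832644, minus strand) was at 141.90, 144.05 and 132.99 FPKM in WT and at 166.10, 182.04 and 180.06 FPKM in Hemgn-/- replicates 1 to 3. The lowest Hemgn-/- library was above the highest WT library. Its log2 fold change was 0.33 (SE 0.07, 95% interval 0.18 to 0.49), with an adjusted p of 0.0236 from limma. The direction held under all 15 alternatives, but the call did not, as the adjusted p was 0.0920 after median-ratio scaling (log2 fold change 0.23) and 0.0537 with the replicate number as a block. With 1 library left out at a time the call held without WT replicate 2 (adjusted p = 0.0381) and without Hemgn-/- replicate 1 (0.0287), and it was lost without WT replicate 1 (0.0732), WT replicate 3 (0.0805), Hemgn-/- replicate 2 (0.0776) or Hemgn-/- replicate 3 (0.113). B cells, T cells and neutrophils also carry PSGL-1. In the same libraries the summed FPKM of 7 B cell markers was 1183 to 1241 in WT and 1407 to 1576 in Hemgn-/-, and that of 9 T and NK cell markers was 162 to 165 and 184 to 220. Of these genes, 3 B cell and 2 T and NK cell genes were called higher and 0 lower. The summed FPKM of 9 neutrophil markers was lower, with 75531 to 81532 in WT and 50063 to 55411 in Hemgn-/-. Of these genes 3 fell (Ngp, Ltf and Camp), 1 rose (Cxcr2) and 5 were not called. Ngp, the largest part of the sum, had a mean of 44876 FPKM in WT and 27132 FPKM in Hemgn-/-. Cxcr2 had a mean of 278 FPKM in WT and 415 FPKM in Hemgn-/-. The part of these cells in the higher Selplg, Itga4 and Itgal was not tested.

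**Figure D3:**
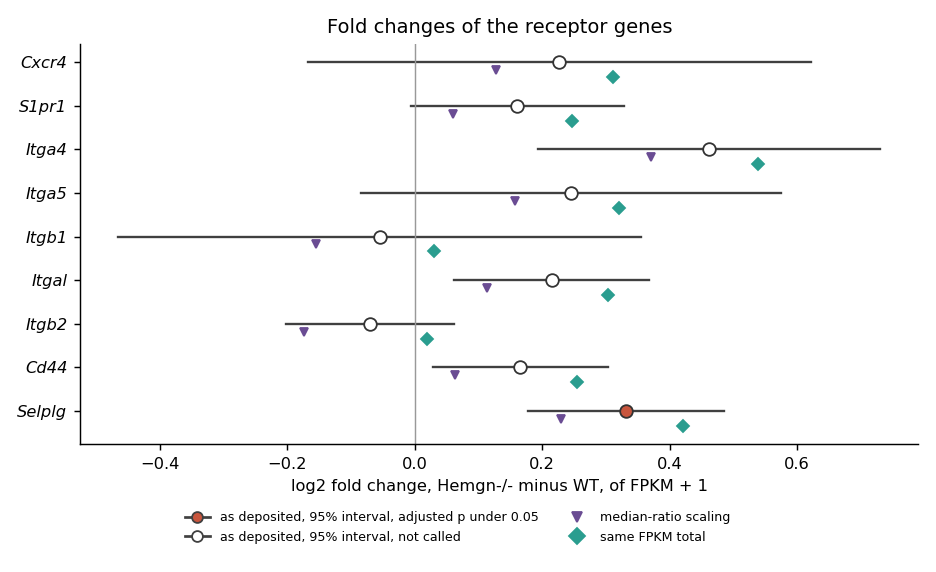
Log2 fold change of FPKM + 1 (Hemgn-/- minus WT) of the 9 receptor genes, with circles and 95% intervals for the deposited values (filled where the adjusted p is under 0.05) and smaller symbols for 2 other scalings. The intervals of Selplg (0.18 to 0.49), Itga4 (0.19 to 0.73), Itgal (0.06 to 0.37) and Cd44 (0.03 to 0.30) lie above 0, and Selplg alone is filled. The intervals of Cxcr4 and Itgb1 are the widest. For each gene median-ratio scaling lies lower and the same FPKM total higher.

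The scaling between libraries shifted all genes together. Their median log2 fold change of 0.087 as deposited became 0.0068 under median-ratio scaling and 0.16 under a common FPKM total. The calls over all genes changed from 600 higher and 287 lower to 341 higher and 386 lower with median-ratio scaling and to 1062 higher and 238 lower with the common total. The members called higher were 0 with median-ratio scaling and 4 with the common total (Selplg, Itga4, Itgal and Cd44). Without WT replicate 2, 1 of 9 members was called higher (3.34% of all genes tested) and 0 lower, and the groups did not overlap for 7 members that were higher (25.8%) and 1 that was lower (12.0%).

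FPKM is per length, so the levels of the receptors can be set side by side, as far as the length is right. All annotated exons together are 13978 bases for Itga4, 4933 for Itga5 and 4081 for Itgb1, and the order depends on such lengths. In both genotypes the order of the mean levels was Itgb2, Selplg, Cd44, Itgal, S1pr1, Itgb1, Cxcr4, Itga4 and Itga5. Itgb2 was above 99.7% of the genes tested in WT, and Itga5, at the other end, above 55.4%. The ranges of Itgb1 and Cxcr4 overlapped in both genotypes, so their order is not resolved. Those of Selplg and Cd44, and of Itga4 and Itga5, overlapped in WT but not in Hemgn-/- libraries. The remaining neighbors did not overlap in either genotype. The beta subunits were thus above the alpha subunits with which they pair, with Itgb1 at 26.5 ± 7.75 FPKM in WT beside Itga4 at 5.85 ± 0.71 FPKM and Itga5 at 5.06 ± 0.417 FPKM (SD, n = 3 each).

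Ratios of receptors within a library do not depend on the scaling, and 7 were compared with exact two-sided permutation tests, for which 3 libraries against 3 cannot give a p below 0.1. The ratio of Itgal to Itgb2 was 0.0995, 0.107 and 0.0970 in WT and 0.116, 0.1298 and 0.125 in Hemgn-/- replicates 1 to 3. All Hemgn-/- values were higher, by 0.29 on the log2 scale (exact permutation p = 0.1, Benjamini-Hochberg adjusted 0.35 over the 7 ratios). The ratio of Cd44 to Selplg was 0.973, 0.992 and 1.00 in WT and 0.934, 0.844 and 0.867 in Hemgn-/- replicates 1 to 3. It fell below every WT value in the Hemgn-/- libraries, with a log2 difference of -0.17 (exact permutation p = 0.1, adjusted 0.35), so neither ratio passed the adjustment. The groups overlapped for the other 5 ratios. Itga4 to Itgb1 differed by 0.58 on the log2 scale (exact permutation p = 0.2), Itga5 to Itgb1 by 0.34 (p = 0.4 by the same exact test) and Itga4 to Itga5 by 0.24 (exact p = 0.5). Without WT replicate 2 these differences were 0.27, 0.18 and 0.09, and without Hemgn-/- replicate 3 that of Itga5 to Itgb1 was 0.13. Itga4 to Itga5 differed by 0.13 without Hemgn-/- replicate 2. Itgb2 to Itgb1 differed by -0.01 with all libraries (exact p = 1) and by -0.26 without WT replicate 2. The ratio of Cxcr4 to S1pr1, the homing receptor against the egress receptor, was 0.614, 0.379 and 0.461 in WT and 0.524, 0.453 and 0.528 in Hemgn-/- replicates 1 to 3, with the Hemgn-/- values inside the WT range (log2 difference 0.07, exact p = 0.8). Without WT replicate 2 this difference was -0.09, and without WT replicate 1 it was 0.26.

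**Figure D4:**
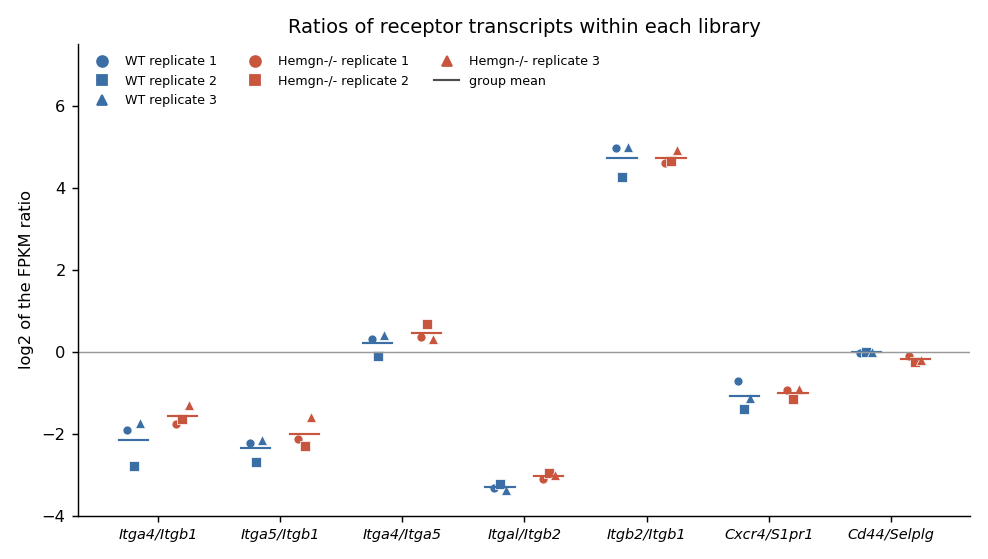
Log2 of 7 FPKM ratios between receptor genes in each library, with a marker shape for each replicate and horizontal lines for the group means. Itgal/Itgb2 is higher and Cd44/Selplg lower in all 3 Hemgn-/- libraries than in any WT library, while WT replicate 2 is the lowest of the 6 for Itga4/Itgb1, Itga5/Itgb1, Itga4/Itga5, Itgb2/Itgb1 and Cxcr4/S1pr1.

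The wider homing machinery was described with 8 lists that hold 156 other genes, of which 155 were in the table and 127 were tested. Across these lists 11 genes rose, 5 fell and 111 were not called by limma at an adjusted p under 0.05. Of all genes tested, 4.37% were higher and 2.09% lower, which is also the background of the counts in each list. The median log2 fold change was 0.072 over the lists beside 0.087 for all genes tested. The integrin list had 8 tested genes, and Itgb7 was the member that rose. Itgb7, the alternative partner of Itga4, was at 59.8, 58.3 and 67.2 FPKM in WT and at 86.3, 93.7 and 82.2 FPKM in Hemgn-/- replicates 1 to 3, without overlap (log2 fold change 0.49, adjusted p = 0.0113 from limma, and 0.0509 without WT replicate 1). The call of Itgb7 was also lost without the variance trend of limma (adjusted p = 0.0718). Itgb7 is typical of lymphocytes and mast cells, and its place beside the B cell markers, of which 3 of 7 rose, was not tested. The sum of Itgb1 and Itgb7 was 88.2 ± 6.01 FPKM in WT and 112 ± 7.28 FPKM in Hemgn-/- libraries (SD, n = 3 each).

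In the list of the CXCR4 axis, 1 of 21 tested genes rose and 1 fell. Rgs1, which shortens signaling of chemokine receptors through their G proteins, was at 28.2, 30.2 and 29.1 FPKM in WT and at 40.6, 38.7 and 40.4 FPKM in Hemgn-/- replicates 1 to 3 (log2 fold change 0.44, adjusted p = 0.0112 from limma). Gnb1, a beta subunit of heterotrimeric G proteins, was at 50.5, 54.0 and 51.6 FPKM in WT and at 36.4, 32.6 and 32.6 FPKM in Hemgn-/- replicates 1 to 3 (log2 fold change -0.61, adjusted p = 0.00364). Neither gene overlapped between the groups. Gnb1 was called under all 15 alternatives, and Rgs1 was not called without WT replicate 1 (adjusted p = 0.0524) or Hemgn-/- replicate 3 (0.0631). In the list of the sphingosine 1-phosphate axis, Cd69, whose protein binds S1PR1 and removes it from the surface, was the 1 gene of 12 tested that rose. It was at 46.6, 51.3 and 47.9 FPKM in WT and at 67.6, 66.7 and 62.5 FPKM in Hemgn-/- replicates 1 to 3 (log2 fold change 0.43, adjusted p = 0.0125 from limma, and 0.0571 without WT replicate 1). Neither Rgs1 nor Cd69 was called without the variance trend of limma (adjusted p = 0.0647 and 0.0774). Rgs1 and Cd69 are also high in activated lymphocytes. Of the lymphocyte markers, 3 of 7 B cell genes and 2 of 9 T and NK cell genes rose, and their part was not tested.

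The list of selectin ligands and their glycosylation held 18 tested genes, of which 3 rose, Gcnt1 and Cd34 among them, and 0 fell. Gcnt1, which builds the branched O-glycans that selectin ligands such as PSGL-1 need, was at 9.82, 7.88 and 9.73 FPKM in WT and at 13.2, 12.7 and 14.3 FPKM in Hemgn-/- replicates 1 to 3 (log2 fold change 0.51, adjusted p = 0.0330 from limma). Cd34, a sialomucin of progenitors and endothelium, was at 8.80, 7.23 and 8.21 FPKM in WT and at 11.4, 10.8 and 11.9 FPKM in Hemgn-/- replicates 1 to 3 (0.45, adjusted p = 0.0427). The groups did not overlap for either gene. Both lost their calls after median-ratio scaling, Gcnt1 with 0.42 (adjusted p = 0.0720) and Cd34 with 0.35 (adjusted p = 0.10), and when any 1 of the 6 libraries was left out. Gcnt1 stayed called in 5 and Cd34 in 3 of 15 alternatives.

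Of the 23 tested genes of integrin activation and the adhesome, Ptk2b, a focal adhesion kinase of leukocytes, rose with a log2 fold change of 0.43 (adjusted p = 0.0382 from limma). Of 20 tested genes of cell migration, Dock2, the exchange factor that activates Rac in leukocytes, rose with 0.31 (adjusted p = 0.0484). Both lost their calls after median-ratio scaling (adjusted p = 0.0938 and 0.174). With 1 library left out, Ptk2b stayed called without Hemgn-/- replicate 1 alone and Dock2 in 0 of 6 cases, and they were called in 5 and 3 of 15 alternatives. Rac1 is a small GTPase that the study names for homing and reports as decreased. It was at 23.2, 50.1 and 27.2 FPKM in WT and at 21.6, 18.4 and 15.4 FPKM in Hemgn-/- replicates 1 to 3. The Hemgn-/- values were all below the WT values, with WT replicate 2 far above the other WT libraries. The log2 fold change was -0.76 (95% interval -1.34 to -0.18, adjusted p = 0.127 from limma). Without WT replicate 2 it was -0.44 (-0.78 to -0.09, adjusted p = 0.153). The unadjusted p over all libraries was 0.0160 from limma and the ratio of the means, Hemgn-/- over WT, was 0.551. Rac1 thus met the study's rule of an unadjusted p under 0.05 and a 1.5-fold change. Without WT replicate 2 the change was smaller than 1.5-fold.

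The genes listed as counter-receptors and ligands changed in both directions in the donor cells, with 2 of 10 tested genes higher and 2 lower. Fn1, fibronectin and a ligand of VLA-4 and VLA-5, was at 1.56, 1.26 and 1.16 FPKM in WT and at 3.96, 3.95 and 4.44 FPKM in Hemgn-/- replicates 1 to 3 (log2 fold change 1.14, adjusted p = 0.00300 from limma). Icam1, the ligand of LFA-1, was at 15.8, 18.0 and 13.9 FPKM in WT and at 25.9, 26.2 and 26.8 FPKM in Hemgn-/- replicates 1 to 3 (0.70, adjusted p = 0.00619). Vcam1, the endothelial and macrophage ligand of VLA-4, was at 11.03, 9.37 and 10.2 FPKM in WT and at 6.50, 5.78 and 5.97 FPKM in Hemgn-/- replicates 1 to 3 (-0.66, adjusted p = 0.00940). These 3 genes kept their calls under all 15 alternatives. Thbs1, thrombospondin, fell by 0.40 on the log2 scale (adjusted p = 0.0125 from limma). It was not called without WT replicate 1 (0.0570), Hemgn-/- replicate 3 (0.0586) or the variance trend of limma (0.0951). The 8 endothelial markers summed to 17.4 to 18.2 FPKM in WT and 18.3 to 21.7 FPKM in Hemgn-/- libraries with 0 of 5 tested genes called by limma. Of the 9 macrophage genes, which include Vcam1, 2 rose and 2 fell. The part of macrophages in Vcam1 and Fn1 was not tested.

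Among 16 tested genes of other adhesion molecules of HSPCs, Cd48, a SLAM family protein, rose (log2 fold change 0.48, adjusted p = 0.0332 from limma), while Ncam1 (-0.70, adjusted p = 0.00940) and the tetraspanin Cd81 (-0.34, adjusted p = 0.0467) fell. Ncam1 was at 14.8, 14.9 and 15.2 FPKM in WT and at 10.3, 7.85 and 8.49 FPKM in Hemgn-/- replicates 1 to 3, and it kept its call under all 15 alternatives. Cd48 was no longer called after median-ratio scaling (adjusted p = 0.0739) or when any 1 of the 6 libraries was left out, and stayed called in 3 of 15 alternatives. Cd81 stayed called in 6 of 15, among them median-ratio scaling (-0.44, adjusted p = 0.0187), but not with the common FPKM total (-0.26, adjusted p = 0.102), and with 1 library left out it was called only without WT replicate 2 (adjusted p = 0.0334).

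**Figure D5:**
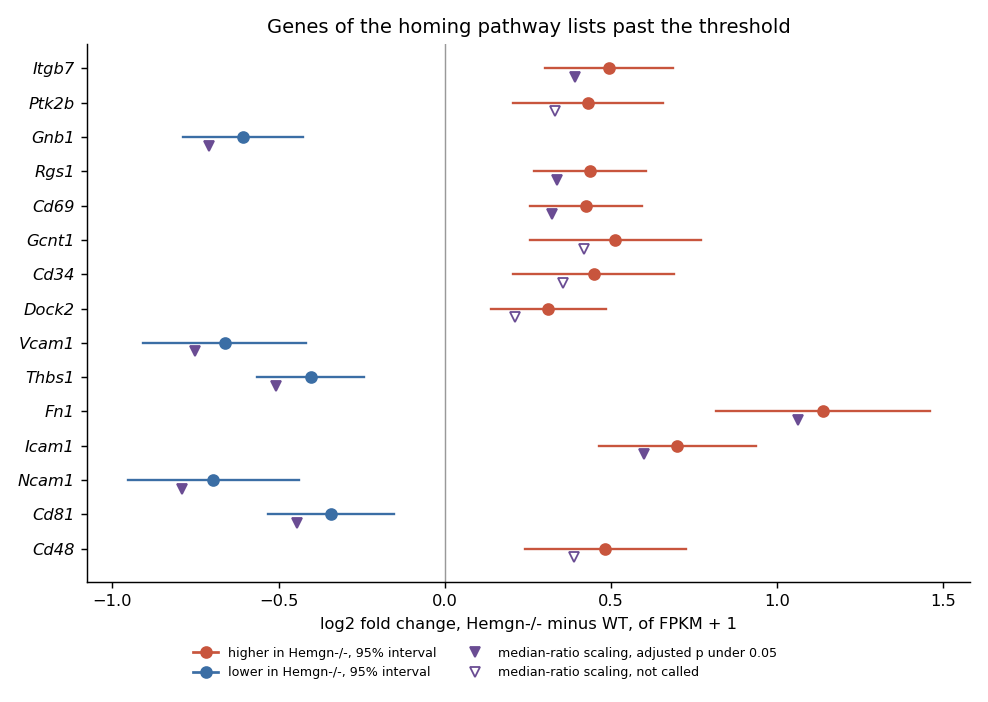
Log2 fold change of FPKM + 1 (Hemgn-/- minus WT) of 15 of the 16 genes of the homing pathway lists with an adjusted p under 0.05, with circles and 95% intervals for the deposited values and triangles for median-ratio scaling, filled where the adjusted p stays under 0.05. Fn1 stands highest at 1.14 and Ncam1 lowest at -0.70, and the open triangles mark Ptk2b, Gcnt1, Cd34, Dock2 and Cd48.

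The genes whose log2(FPKM + 1) values ran most like those of the 3 members with the smallest p were listed as a description. The 6 libraries are 3 of each genotype and differ in depth, so the correlations also take in the difference between the genotypes. For Selplg these were Ears2, Il4ra and Nars2 (Pearson's r of 0.996, 0.995 and 0.994). For Itga4 they were Igkv12-41, Tars and Gm4540 (0.999, 0.995 and 0.993), of which the first is an immunoglobulin light chain segment of B cells. For Itgal they were Dtx3l, Rpl10-ps2 and Eif2b3 (0.999, 0.996 and 0.996), of which the second is a ribosomal protein pseudogene whose reads may come from its parent.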

How the data were processed

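RNA-seq of donor cells was compared between 3 WT and 3 Hemgn-/- libraries, grouped by the genotype in the labels. The methods speak of biological replicates and the labels only of replicates, so p-values measure the spread between these libraries. The deposited table gives FPKM per gene in each library, as the authors computed it. The submitters' processing notes name Bowtie2 2.2.3, HISAT2 2.1.0, TopHat2, HTSeq 0.6.0 and GRCm38, and neither the counting of strands nor the role of each tool is given in the sources used here. Of 24965 genes, 24921 matched GENCODE M21, which gave symbols, positions and exon lengths. Fragments were recovered from the FPKM values with these lengths. Of 13466 genes that stayed at or under 100 fragments throughout, 95.2% gave whole fragments in all 6 within a tolerance of 0.01. The cDNA was amplified and fragments carry no molecular identifiers, so counting errors are lower limits.

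FPKM values were taken as log2(FPKM + 1), which understates changes of low genes. The 13739 genes that exceeded 1 FPKM in any library entered a two-sided test with limma 3.58.1 under R 4.3.3 (lmFit, eBayes with a trend, no covariate), with Benjamini-Hochberg adjustment over all of them and a threshold of 0.05. Intervals are 95% intervals of the moderated test. Group means are given with the SD. Ratios were compared with exact permutation tests over libraries. Named genes are the 9 members, Hemgn, Rac1, up to 5 highest and 5 lowest called genes without overlap in each pathway list, and the 3 genes most like each of 3 members. Itgam, Kit, Cerkl, Ngp, Ltf, Camp and Cxcr2 were named after their values were seen. The members and lists were chosen with earlier results of these data known. Some planned results are not reported here. The method was tested on simulated data. Alternatives were pseudocount, filters, scalings, the variance model, a replicate block, voom on recovered fragments and leaving out each library, with the filter applied again. The other steps used Python 3.11.15 (numpy 2.4.6 and pandas 2.3.3, with matplotlib 3.10.9 for figures).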

Additional observations from a re-analysis of the deposited data

How the results depend on the processing

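The limma calls rest on 3 libraries a group and on the scaling between them, and the causes of the changes below were not tested. Under 15 alternatives the directions of Cxcr4, S1pr1, Itga4, Itga5, Itgal, Cd44, Selplg and Hemgn held. Itgb1 turned to 0.030 with the same FPKM total, and with 1 library left out it ran from -0.17 to 0.17, above 0 without WT replicate 2 or Hemgn-/- replicate 3 (0.025). Itgb2 turned to 0.018 with the same total. Itga4 was called with the same total (0.54) and voom (0.42), Itgal (0.30) and Cd44 (0.25) with the same total. Selplg lost its call without the filter on low values and without the trend (0.33 each, adjusted p = 0.0585 and 0.136), after median-ratio scaling (0.23), with voom (0.23, adjusted p = 0.0540) and with the replicate block (0.33, adjusted p = 0.0537), and over the libraries left out it ran from 0.30 to 0.37 (adjusted p = 0.0287 to 0.113). Hemgn lost its call without the filter (-1.37, adjusted p = 0.0613) and without WT replicate 3 (-1.32, adjusted p = 0.0503), with -1.58 to -1.20 over the libraries left out.

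The members called higher were 0 without the filter, with median-ratio scaling, without the trend and with the replicate block, 4 with the same total and 0 to 1 with a library left out. All genes called higher were 309 without the filter, 341 with median-ratio scaling, 1062 with the same total, 369 after quantile normalization, 237 without the trend, 359 with voom and 410 with the replicate block, and genes called lower were 157 without the filter, 153 without the trend and 449 with voom. Genes of the pathway lists called higher were 6 without the filter, 6 with median-ratio scaling, 21 with the same total, 6 after quantile normalization, 2 without the trend and 7 with the replicate block, and those called lower were 8 with median-ratio scaling, 3 without the trend and 9 with voom. Same-numbered libraries did not deviate together (r of -0.043, -0.0094 and 0.011). With 3 libraries a group this cannot exclude a shared batch, and the labels give only replicate numbers.

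With 1 library left out, all genes called ran from 223 to 451 higher and 150 to 237 lower, and pathway genes from 3 to 7 higher and 3 to 5 lower. In a further alternative, chosen after seeing the data, the genes that passed over all 6 libraries were kept when 1 was left out. It gave 140 to 307 higher and 111 to 178 lower genes, 2 to 6 higher and 1 to 4 lower pathway genes, an adjusted p of 0.0398 to 0.123 for Selplg, which was then called only without Hemgn-/- replicate 1, and one of 0.0230 to 0.0793 for Hemgn. The ratio of Itgb2 to Itgb1 differed by -0.014 on the log2 scale and ran from -0.26 to 0.11 with a library left out, and that of Cxcr4 to S1pr1 from -0.088 to 0.26.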
